A study of Homo sapiens with 12 samples.

Results

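The genes described here are the enolases ENO1, ENO2 and ENO3 and the aldolases ALDOA and ALDOC, 5 of the 28278 gene rows of the count table, found by symbol. They were chosen from the change between hydroxychloroquine (HCQ)-evolved and control pools in these same libraries, so their values in that contrast are given as a description, without a test. Bulk mRNA of cells labelled OVCAR3 (ovarian cancer) and CCL218 (colorectal cancer) was sequenced in 12 libraries, 3 for each of 4 groups. HCQ-evolved cells had gone through 15 drug exposures of 48 h and then grew for 7 days without HCQ, and control cells were passaged beside them without the drug. Sample labels give passage 15 for the HCQ-evolved and passage 19 for the control pools. Drug history and labelled passage therefore cannot be told apart in the contrast of HCQ-evolved and control pools. Each library is a pool of wells from the left (L), middle (M) or right (R) side of 1 plate per group, so p-values measure the spread between pools of a plate, not between repeated evolutions.

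Enolase turns phosphoglycerate into phosphoenolpyruvate late in glycolysis, and aldolase splits fructose bisphosphate into the triose phosphates in the middle of the pathway. Each enzyme is encoded by paralogs with tissue preferences. ENO1 is the enolase of most cells, ENO2 is the form known from neurons and neuroendocrine cells, and ENO3 is the muscle form. ALDOA is the aldolase of muscle and most other tissues, and ALDOC is the form known from brain. Many glycolytic genes are textbook targets of hypoxia-inducible factor, which binds the letters ACGTG or GCGTG in DNA.

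Libraries held 31147822 to 59965861 counts. Levels are CPM, counts scaled to library size after TMM normalization. Of all genes 0 reached 5 CPM throughout one line while staying under 1 CPM throughout its counterpart. The intestinal markers VIL1 and LGALS4 averaged 110 to 241 and 360 to 1046 CPM in the 4 groups, OVCAR3 groups included. Other intestinal markers were highest in HCQ-evolved CCL218, where CDX2, CDH17, GPA33 and CEACAM5 averaged 67.8, 52.5, 34.7 and 60.9 CPM, against 23.2, 3.84, 4.77 and 14.2 CPM in control CCL218 and 3.10 to 10.9 CPM in the OVCAR3 groups. The ovarian marker MSLN was also higher under the CCL218 label, at 63.6 and 108 CPM against 14.2 and 6.86 CPM in OVCAR3. The ovarian marker MUC16 went the other way, at 22.4 and 30.9 CPM in control and HCQ-evolved OVCAR3 against 8.65 and 4.77 CPM in CCL218. FOLR1 averaged 4.93 and 2.24 CPM in OVCAR3 and 2.56 and 1.96 CPM in CCL218. PAX8 averaged 8.31 to 12.01 CPM and WT1 0.267 to 1.60 CPM in the groups. SOX17 had 0 counts in every library, and EMX2 had at most 2 counts. OVCAR3 and CCL218 are used below as the names of the labels, and a line means the libraries under a label. Whether the labels mark distinct cell lines was not tested. The summed level of 9 intestinal markers was 907 to 1121 CPM in control and 225 to 648 CPM in HCQ-evolved OVCAR3 pools, and 1105 to 1597 and 1154 to 1212 CPM in CCL218. LGALS4 carried most of that sum and was lower in the HCQ-evolved than in the control group of both lines on average, unlike the 4 markers named above in CCL218. The part of these markers in the enzyme levels was not tested. In bulk RNA, fewer cells of a type and less RNA per cell cannot be told apart. Deviations of a library from the mean followed transcript length, with Spearman's rho across genes from -0.457 to 0.531 and both signs within every group.

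Markers of cells in which ENO2, ALDOC, ENO3 or ALDOA are known as abundant were also read. Of 10 neuronal and neuroendocrine markers 8 averaged under 1 CPM in every group, with CHGA at 0 counts throughout, and the summed level of the list was 14.3 to 23.7 CPM in control and 12.5 to 16.3 CPM in HCQ-evolved pools. TUBB3 carried most of that sum, at 12.9 to 16.0 CPM. Of 9 muscle markers 8 or 9 averaged under 1 CPM in every group, with a summed level of 0.502 to 3.44 CPM and MYOD1 at 0 counts. Fibroblast markers summed to 0.636 to 3.34 CPM. Among leukocyte markers, PTPRC and CD3E averaged under 1 CPM, and LYZ averaged 1781 to 2400 CPM. CD68 averaged 15.0 and 12.7 CPM in control OVCAR3 and CCL218 and 35.7 and 50.0 CPM in the HCQ-evolved groups, and its part in the results was not tested.

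The promoters of ENO1, ENO2 and ALDOC are shown because these genes stood higher together in HCQ-evolved pools of both lines and because they carry different numbers of the letters above. ALDOA also stood higher in both lines, and its windows are given below by their matches only. Each window is the 250 bases before an annotated RefSeq start (GRCh38.p14), written 5' to 3' on the strand of the gene, with every match to ACGTG or GCGTG on either strand in capitals. The windows are chr1:8878687-8878936 (minus strand) for ENO1, chr12:6914330-6914579 (plus strand) for ENO2 and chr17:28576896-28577145 (minus strand) for ALDOC.
ENO1: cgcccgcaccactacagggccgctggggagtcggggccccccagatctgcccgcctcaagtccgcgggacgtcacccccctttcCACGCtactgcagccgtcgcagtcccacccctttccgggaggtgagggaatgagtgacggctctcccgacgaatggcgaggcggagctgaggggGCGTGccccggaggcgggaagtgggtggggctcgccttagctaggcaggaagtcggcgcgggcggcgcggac
ENO2: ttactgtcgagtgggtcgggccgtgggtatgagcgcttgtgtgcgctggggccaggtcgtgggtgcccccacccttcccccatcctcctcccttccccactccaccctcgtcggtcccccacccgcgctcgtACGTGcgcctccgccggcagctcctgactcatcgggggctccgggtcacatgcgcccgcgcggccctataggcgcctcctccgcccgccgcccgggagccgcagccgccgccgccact
ALDOC: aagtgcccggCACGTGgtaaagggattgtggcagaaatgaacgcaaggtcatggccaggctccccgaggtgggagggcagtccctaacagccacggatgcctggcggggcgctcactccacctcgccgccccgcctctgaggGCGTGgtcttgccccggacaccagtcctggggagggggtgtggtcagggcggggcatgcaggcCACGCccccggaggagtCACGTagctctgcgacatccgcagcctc
ALDOC held 5 matches, of which 2 are the strands of 1 palindromic CACGTG near the far end of the window. ENO1 held 2, both GCGTG, and ENO2 held 1 ACGTG at -118, counted from the start. The 3 annotated starts of ALDOA had 1, 2 and 1 matches, where the 2 are again the strands of 1 palindromic CACGTG. The 2 starts of ENO3 had 2 and 0. Of 35093 RefSeq promoter windows of the same length, 43.2% held at least 1 match and 19.3% held 2 or more, with a palindromic CACGTG counted as 2. A match in such a window is thus common and is given as letters only, not as a bound site.

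ENO1 (ENSG00000074800.16, chr1:8861000-8879190, minus strand, GENCODE 44 on hg38) is the enolase of most cells and had the most counts of the 5 genes per exon length in every group. In OVCAR3 it was at 1409, 1351 and 1503 CPM in control pools L, M and R and at 2426, 2597 and 2205 CPM in HCQ-evolved pools. CCL218 pools were at 1140, 1279 and 1336 CPM in control and at 1853, 1741 and 1671 CPM in HCQ-evolved pools. In each line the lowest HCQ-evolved pool exceeded the highest control pool. The log2 fold change, HCQ-evolved over control, was 0.78 (standard error 0.20) in OVCAR3 and 0.48 (0.13) in CCL218. The antisense gene ENO1-AS1 covers 126 bases of ENO1 exons and had 11 to 45 counts per library, against at least 43028 for ENO1. Of 6 annotated pseudogenes of ENO1 and ALDOA 0 had a row in the table, and how reads shared with them were treated is not given in the sources used here.

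ENO2 (ENSG00000111674.9, chr12:6913745-6923698, plus strand) is the neuronal form, and its fold change was larger than that of ENO1. Control OVCAR3 pools were at 47.1, 43.3 and 38.2 CPM and HCQ-evolved pools at 134, 136 and 173 CPM, with pool R the highest. Control CCL218 pools were at 32.8, 26.3 and 25.2 CPM and HCQ-evolved pools at 139.7, 136 and 119.9 CPM. The groups did not overlap in either line. The log2 fold change was 1.81 (0.19) in OVCAR3 and 2.23 (0.15) in CCL218, place 45 of 12204 and place 43 of 12241 genes tested when these are ordered from the highest fold change.

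ENO3 (ENSG00000108515.18, chr17:4948092-4957131, plus strand) was low throughout, with 116 to 389 counts per library. It was at 7.06, 3.64 and 4.85 CPM in control and at 5.82, 7.505 and 5.66 CPM in HCQ-evolved OVCAR3 pools. CCL218 pools were at 6.56, 2.52 and 2.84 CPM in control and at 4.06, 2.39 and 2.79 CPM in HCQ-evolved pools. Control and HCQ-evolved pools overlapped in both lines, and the log2 fold changes of 0.31 (0.28) and -0.37 (0.41) were about as large as their errors. Without control pool L the CCL218 value was 0.19. The control pools L of both lines, where ENO3 was highest, had a length correlation of -0.320 (OVCAR3) and -0.457 (CCL218), and the control pools M, where it was lowest, had 0.488 and 0.447. The control pools R did not follow that order, with -0.391 in OVCAR3, where ENO3 was between the other pools, and 0.0271 in CCL218, where it was close to pool M. ENO3 has the shortest transcript of the 5 genes (1521 bases), and PFN1, at 604 to 1406 CPM, overlaps 111 bases of its exons on the other strand. The part of either in the ENO3 level was not tested.

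ALDOC (ENSG00000109107.14, chr17:28573115-28576948, minus strand) was at 134, 112 and 118 CPM in control OVCAR3 pools and at 355, 407 and 244 CPM in HCQ-evolved pools. CCL218 pools were at 79.1, 68.2 and 53.1 CPM in control and at 316, 326 and 257 CPM in HCQ-evolved pools. All HCQ-evolved pools were above all control pools, and pool R was the lowest HCQ-evolved pool in both lines. The log2 fold change was 1.48 (0.22) in OVCAR3 and 2.16 (0.19) in CCL218, place 88 and place 49 from the highest. In the HCQ-evolved OVCAR3 pool R, ALDOC was lowest while ENO2 was highest, and the length correlation of that pool was 0.531 against -0.396 and -0.416 in pools L and M. Without that pool the OVCAR3 log2 fold change was 1.66 for both genes.

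ALDOA (ENSG00000149925.22, chr16:30064164-30070457, plus strand) was at 44.4, 63.0 and 53.0 CPM in control and at 95.8, 95.1 and 93.2 CPM in HCQ-evolved OVCAR3 pools. CCL218 pools were at 44.9, 55.7 and 49.4 CPM in control and at 114, 84.4 and 90.1 CPM in HCQ-evolved pools. The groups did not overlap in either line, and the log2 fold change was 0.84 (0.20) in OVCAR3 and 0.94 (0.16) in CCL218. The level of ALDOA is uncertain, because the exons of LOC112694756 on the same strand cover 1639 of its 3829 exon bases and 1254 of its 1350 coding bases. LOC112694756 itself had 32 to 208 counts per library, against 1722 to 5567 for ALDOA. How reads on exons of both genes were counted is not given in the sources used here.

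**Figure D1:**
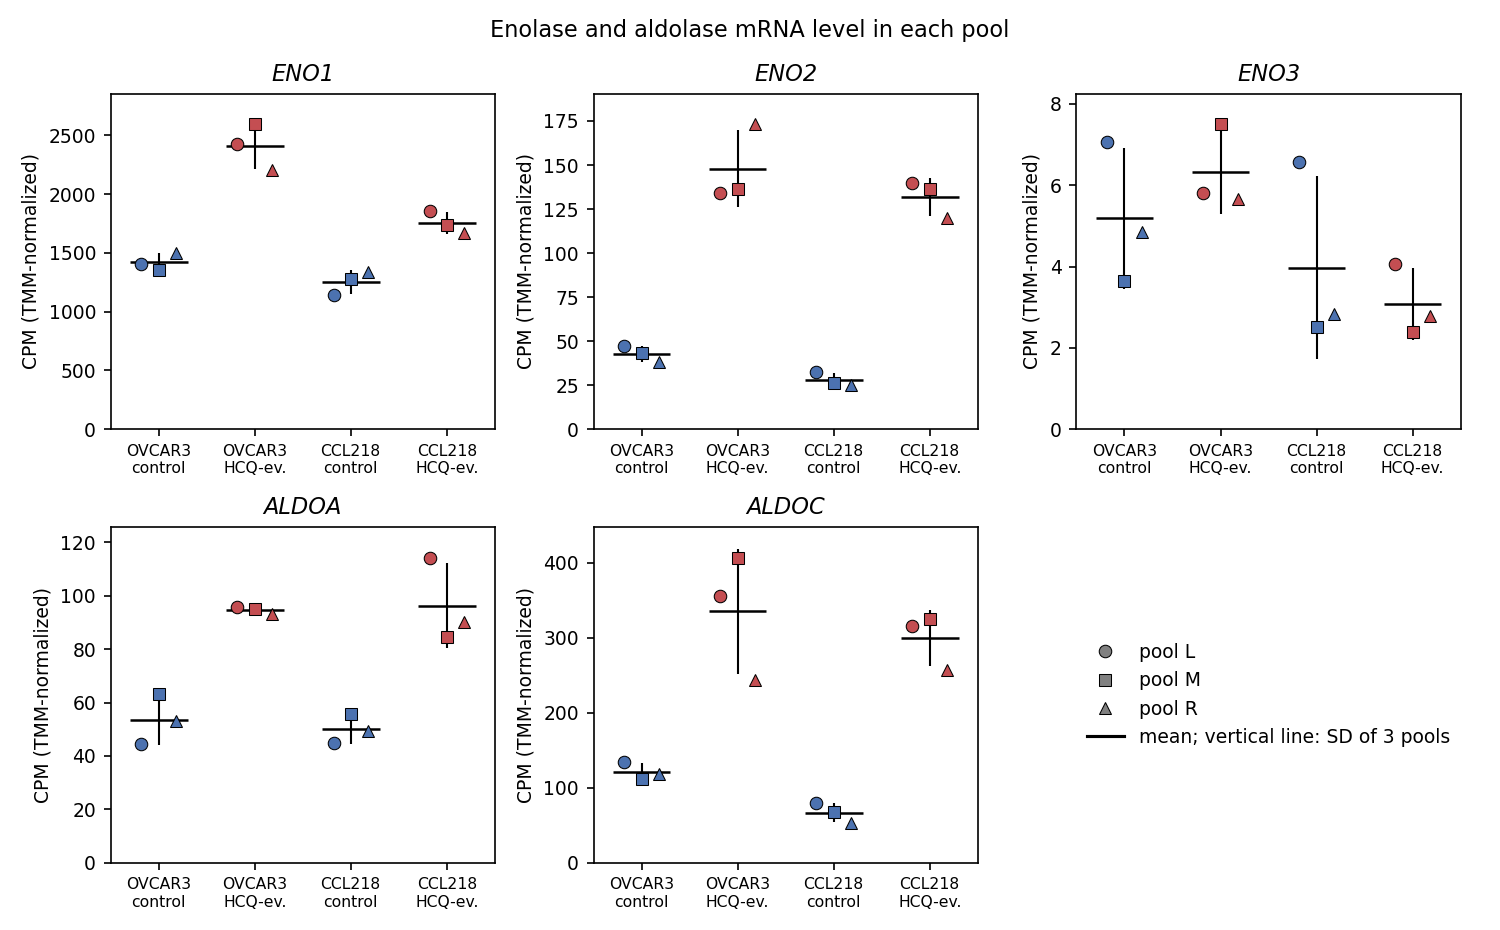
TMM-normalized CPM of each gene (vertical axis, from 0) in the 4 groups (horizontal axis), with pools L, M and R as circles, squares and triangles, controls in blue, HCQ-evolved pools in red, and the mean and SD of 3 pools as lines. ENO1, ENO2, ALDOA and ALDOC of HCQ-evolved pools lie above the control pools of their line, and ENO3 pools, between 2.39 and 7.505 CPM, overlap.

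By the same contrast that chose the genes, edgeR called 2 of 5 higher in OVCAR3 (ENO2 and ALDOC), against 0.647% of 12204 genes tested, and 0 lower, against 1.21%. In CCL218, 3 of 5 were called higher (ENO2, ALDOA and ALDOC), against 3.82% of 12241 genes, and 0 lower, against 2.64%. At an unadjusted p under 0.05, 4 were higher and 0 lower in each line. Over all genes tested, 1023 were higher and 960 lower unadjusted in OVCAR3, and 1535 and 1549 in CCL218. HCQ-evolved pools all lay above control pools for 4 of the 5 genes in each line, against 13.0% of genes in OVCAR3 and 18.6% in CCL218. Because the genes were picked on this contrast, these counts describe them and test nothing. The OVCAR3 count was 0 without control pool L, M or R, in fits that called 0.025%, 0.158% and 0.0332% of all genes. It was 1 without HCQ-evolved pool L or M, where 0.404% and 0.206% of genes were called. After the trend with transcript length and GC content was removed it was 4, with 7.23% of genes called. In CCL218 it was 2 without HCQ-evolved pool L, M or R (1.21%, 0.841% and 1.18% of all genes called) or control pool R (1.2%). It was 3 without control pool M (3.65%) and 4 without control pool L (25.2%). ALDOA was the call lost in CCL218. Fold changes of ENO1, ENO2, ALDOA and ALDOC stayed above 0 under each alternative plotted.

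**Figure D2:**
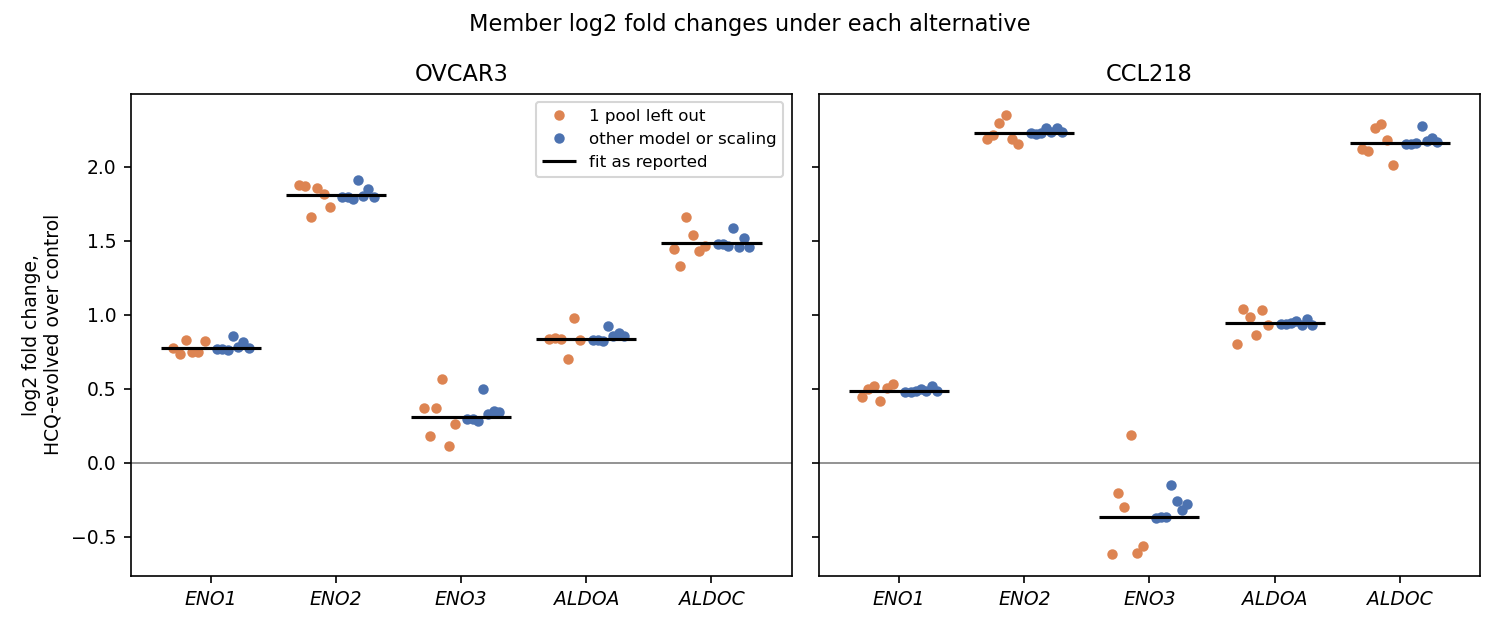
Log2 fold change of HCQ-evolved over control pools (vertical axis) for each gene (horizontal axis) in OVCAR3 and CCL218, with black lines for the fit as reported, orange points for fits that leave out 1 pool and blue points for another model or scaling. ENO2 stays between 1.66 and 1.91 in OVCAR3 and between 2.15 and 2.35 in CCL218, and ENO3 in CCL218 spans 0, from -0.62 to 0.19.

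Set against each other, the fold change of ENO2 was 0.45 (0.22) greater in CCL218 than in OVCAR3 on the log2 scale, that of ALDOC 0.70 (0.29) greater and that of ALDOA 0.12 (0.23) greater. The corresponding difference, CCL218 minus OVCAR3, was -0.27 (0.20) for ENO1 and -0.65 (0.53) for ENO3. In one fit of all libraries, 0 of 5 differences passed an adjusted p of 0.05 in edgeR, DESeq2 or limma voom, where edgeR called 0.872% of 12613 genes. Unadjusted, 1 (ALDOC) passed in edgeR, where 682 of all genes were higher and 467 lower. These differences rest on the same contrast and are likewise a description.

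Divided by exon length, the level as counted, in CPM per kilobase, put ENO1 first and ALDOC next in all groups, at 272 ± 14.7 and 46.4 ± 4.45 in control OVCAR3 (mean ± SD, n = 3). The order of ALDOA and ENO2 depended on the length taken for ALDOA. With all its exon bases, in control pools ALDOA was above ENO2, at 14.0 ± 2.44 against 10.02 ± 1.04 CPM per kilobase in OVCAR3 and at 13.1 ± 1.41 against 6.56 ± 0.961 in CCL218, without overlap. In HCQ-evolved OVCAR3 pools ENO2 was above ALDOA, at 34.6 ± 5.13 against 24.7 ± 0.352, again without overlap. In HCQ-evolved CCL218 pools, at 30.8 ± 2.47 and 25.1 ± 4.14, they overlapped. With only the 2190 exon bases outside LOC112694756, ALDOA was above ENO2 in every pool of all 4 groups, and the HCQ-evolved pools were at 42.5 to 43.7 CPM per kilobase for OVCAR3 and at 38.6 to 52.2 for CCL218. ENO3 came last in all groups, at 0.718 to 1.47 CPM per kilobase.

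The share of ENO2 in enolase mRNA (its CPM per kilobase over the sum of the 3 enolases) was 3.54% ± 0.481 in control and 7.00% ± 1.49 in HCQ-evolved OVCAR3 pools (SD, n = 3). In CCL218 it was 2.68% ± 0.600 and 8.37% ± 0.333. Pools of the 2 arms did not overlap in either line, with the highest control pool at 3.89% and the lowest HCQ-evolved pool at 5.99%. ENO1 still made up 91.0% or more of enolase mRNA in every pool. The ENO3 share was 0.425% ± 0.140 and 0.295% ± 0.0300 in OVCAR3 and 0.386% ± 0.248 and 0.194% ± 0.0463 in CCL218, with overlapping pools in OVCAR3 and in CCL218.

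With all ALDOA exon bases as length, ALDOC was the larger part of aldolase mRNA as counted in every pool. Neither length used here restores ALDOA reads that may have gone uncounted on exons shared with LOC112694756. The ALDOC shares may therefore be too high. Its share of the sum of ALDOA and ALDOC was 76.8% ± 4.71 in control and 83.3% ± 3.60 in HCQ-evolved OVCAR3 pools, and these overlapped. In CCL218 it was 65.8% ± 5.63 and 82.0% ± 2.62, with the control pools at 61.2 to 72.1% below the HCQ-evolved pools at 80.2 to 85.0%. With only the ALDOA exon bases outside LOC112694756, the ALDOC share was 65.5% ± 5.99 and 74.2% ± 4.93 in OVCAR3 and 52.6% ± 6.33 and 72.2% ± 3.59 in CCL218. On that length ALDOC was 47.4% in CCL218 control pool R and above 50% in the other 11 pools.

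**Figure D3:**
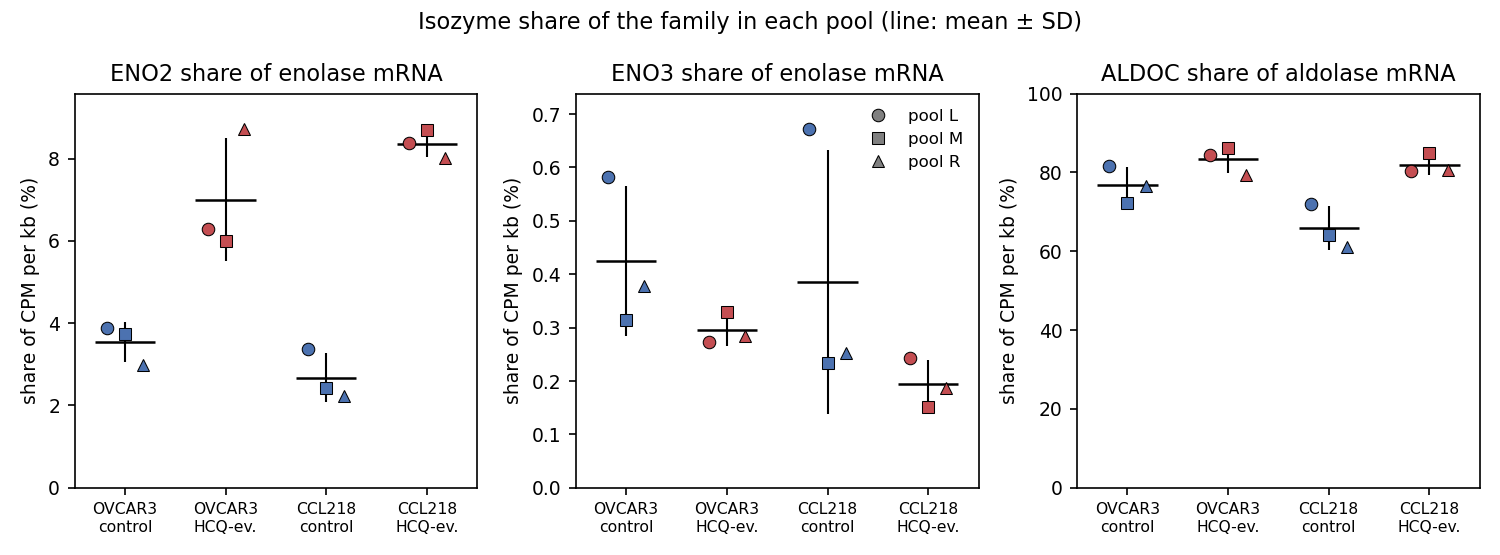
Share of ENO2 and ENO3 in enolase mRNA and of ALDOC in aldolase mRNA (vertical axes, percent of CPM per kilobase, each from 0) in each pool of the 4 groups (horizontal axis), with the mean and SD of 3 pools. The ENO2 share lies at 2.24 to 3.89% in control and at 5.99 to 8.71% in HCQ-evolved pools, and the ALDOC share separates the arms in CCL218 and overlaps in OVCAR3.

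Summed over a family, enolase mRNA was 1.76-fold higher in HCQ-evolved than in control OVCAR3 pools (498 ± 33.5 against 284 ± 14.2 CPM per kilobase) and 1.49-fold higher in CCL218 (368 ± 20.0 against 247 ± 17.9). ENO1 made up 88.4% of that difference in OVCAR3 and 80.1% in CCL218, and ENO2 11.5% and 20.1%. Aldolase mRNA as counted was 2.54-fold higher in OVCAR3 (153 ± 32.3 against 60.4 ± 2.21) and 3.62-fold higher in CCL218 (139.8 ± 15.7 against 38.6 ± 4.75). ALDOC made up 88.4% and 88.1% of the aldolase difference. These aldolase values use all ALDOA exon bases. They are as uncertain as the ALDOA level, and with uncounted ALDOA reads the part of ALDOC would be smaller.

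ENO4, an enolase known from sperm, had 0 to 14 counts per library. It missed the filter on low counts and did not pass when tested without it (edgeR, adjusted p = 0.814 over 21434 genes in OVCAR3 and 0.591 over 21730 in CCL218). Of all table entries of 1 to 4 counts 78.9% were even, so counts at this level came mostly in steps of 2.

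Control pools were compared between the lines, a contrast not used to choose the genes. CCL218 controls were lower than OVCAR3 controls for ENO2, at 28.1 ± 4.11 against 42.9 ± 4.44 CPM, and for ALDOC, at 66.8 ± 13.1 against 121 ± 11.6 CPM, with no overlap of pools. The log2 difference was -0.60 (0.18) for ENO2 and -0.85 (0.19) for ALDOC, and neither passed in edgeR (adjusted p = 0.194 and 0.0867, where 2.05% of 12324 genes were called). The other differences were -0.17 for ENO1 (adjusted p = 0.658), -0.38 for ENO3 (0.678) and -0.088 for ALDOA (0.835). Of the 5 genes 0 passed in edgeR and in limma voom. At an unadjusted p under 0.05 in edgeR 2 were lower (ENO2 and ALDOC), as were 803 of all genes, with 709 higher. The same 2 passed in DESeq2, which called 5.96% of all genes. Same-position control pools of both lines deviated together, with correlations across genes of 0.846 (L), 0.804 (M) and 0.237 (R), so the pools were also compared with plate position as a block. With the block ENO2 (-0.61, adjusted p = 0.000733) and ALDOC (-0.87, adjusted p = 4.58e-05) passed in edgeR, as did 36.0% of all genes tested. Without CCL218 control pool L, ALDOC passed as well (-1.001, edgeR adjusted p = 0.0332, 3.86% of genes called). It also passed with all 12 libraries in one fit (-0.86, edgeR adjusted p = 0.0470, 3.42% of genes called). Shares differed by -0.864 percentage points for ENO2 (exact permutation test, two-sided, p = 0.2), -0.0394 for ENO3 (p = 0.8, exact permutation) and -10.9 for ALDOC (p = 0.1, exact permutation, the smallest p that 3 against 3 pools allow). Within position pairs the ENO2 and ALDOC shares were lower in CCL218 in 3 of 3 pairs and the ENO3 share in 2 of 3 (exact paired permutation, p = 0.25, 0.25 and 0.75, where 0.25 is the smallest that 3 pairs allow).

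HCQ-evolved pools were compared between the lines in the same way, and edgeR called 13.6% of 12207 genes. ENO3 was the member that passed in edgeR. It was lower in all CCL218 pools than in all OVCAR3 pools, at 3.08 ± 0.875 against 6.33 ± 1.02 CPM, with a log2 difference of -1.04 (0.25, adjusted p = 0.0422). This call was lost with all 12 libraries in one fit (0.0971), and without HCQ-evolved OVCAR3 pool L (0.112) or M (0.127) or CCL218 pool L (0.0565), M (0.179) or R (0.187). ENO1 was also lower in every CCL218 pool, with a difference of -0.46 (0.13, adjusted p = 0.0641). Differences were -0.17 (0.14) for ENO2 (adjusted p = 0.413), -0.17 (0.21) for ALDOC (0.588) and 0.019 (0.14) for ALDOA (0.931). In DESeq2, which called 26.8% of all genes, ENO1 (-0.47, adjusted p = 0.000463) and ENO3 (-1.05, 0.00125) passed. Without OVCAR3 pool R, ENO1 (-0.53, adjusted p = 0.000476), ENO3 (-1.13, 0.000805) and ALDOC (-0.36, 0.0109) passed in edgeR, in a fit that called 67.5% of all genes tested. The 2 comparisons between lines share no library with each other, but each shares libraries with the contrast that chose the genes.

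The neighbours of these enzymes in glycolysis were taken from a list of 25 genes, of which 16 had enough counts to be tested. The list was chosen with earlier results of these data known, so its counts and p-values are a description. In CCL218, 8 of 16 rose (HK2, GPI, PFKL, PFKP, TPI1, PGK1, PKM and LDHA) and 0 fell in edgeR, against 3.82% and 2.64% of all genes. At an unadjusted p under 0.05 in edgeR 1 was lower, as were 1549 of all 12241 genes. DESeq2 called 1 lower, and 1068 of all genes. The median log2 fold change was 0.69 against -0.017 over all genes tested. PGK1, which makes ATP from bisphosphoglycerate, was the highest at 1.70 (0.28, adjusted p = 0.0172), and the sperm enzyme GAPDHS was the lowest at -0.59 (0.20, adjusted p = 0.120). In OVCAR3 0 of 16 passed in edgeR, against 0.647% of all genes higher and 1.21% lower. At an unadjusted p under 0.05 in edgeR, 9 were higher and 1 lower, against 1023 and 960 of all 12204 genes. DESeq2 called 9 higher and 1 lower, against 542 and 563 of all genes, and limma voom 2 higher, against 106. The OVCAR3 median was 0.74 against 0.016 over all genes, from -1.86 (0.67) for the hexokinase HKDC1 to 1.40 (0.28, adjusted p = 0.0529) for PGK1. Within each line the values of ENO2 and ALDOC were above that of PGK1. In OVCAR3, ALDOC, at 1.48 (0.22), was within a standard error of PGK1. The enolases and aldolases were picked on this contrast, so that order is a description. The OVCAR3 count was 8 after the length and GC trend was removed (7.23% of all genes called, either direction) and 6 without HCQ-evolved pool R (4.6%). The CCL218 count was 1 without control pool R (1.2% of all genes called) or HCQ-evolved pool L (1.21%) or M (0.841%). It was 2 without HCQ-evolved pool R (1.18%), 6 without control pool M (3.65%) and 10 without control pool L (25.2%).

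**Figure D4:**
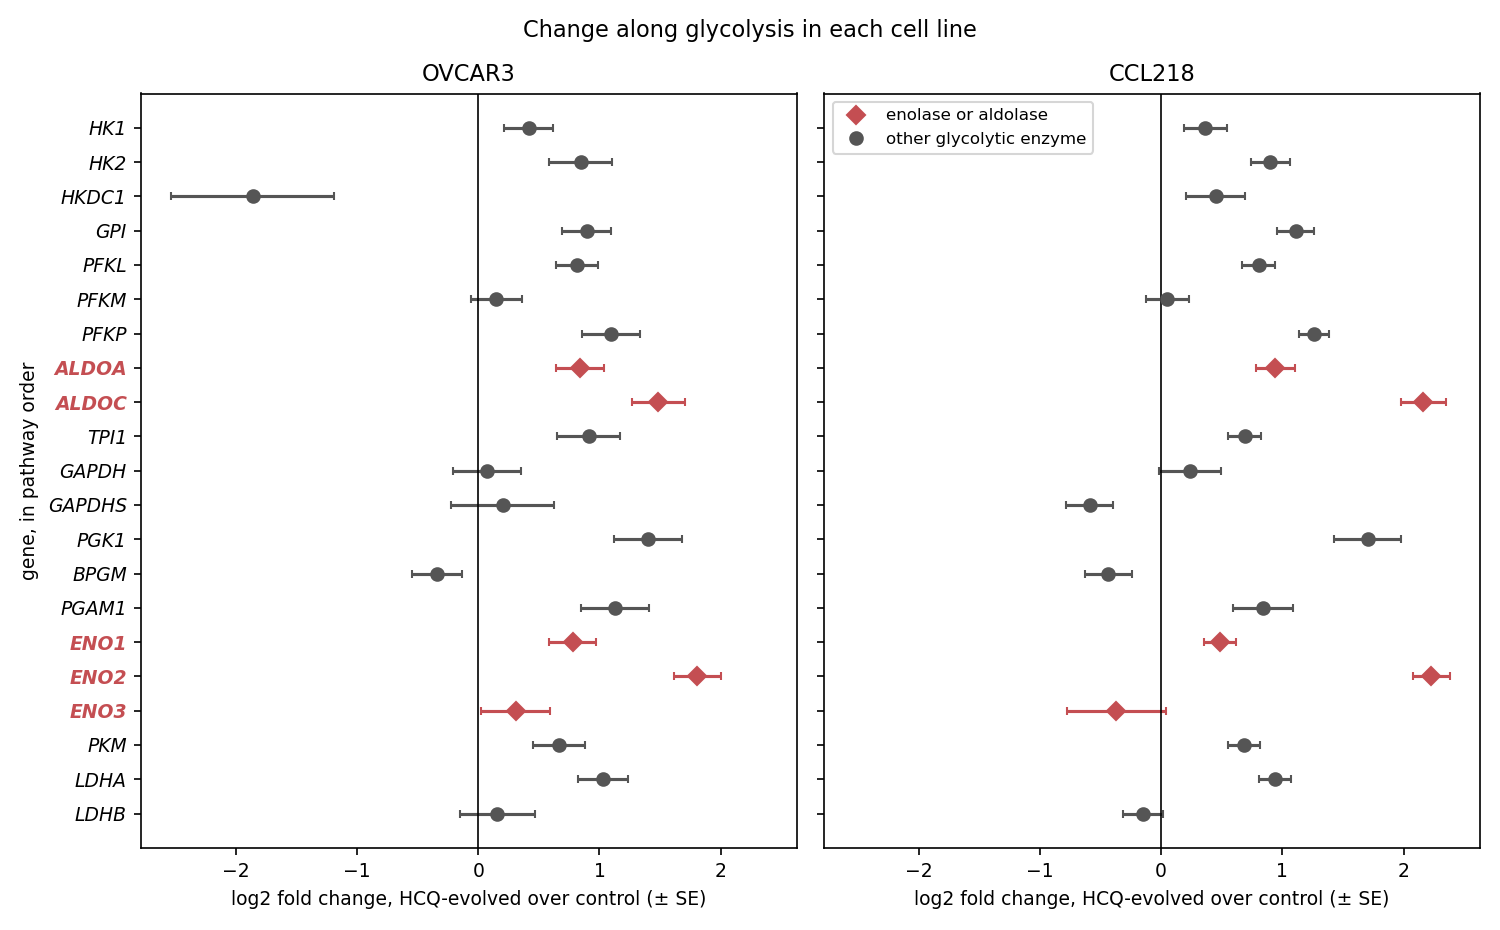
Log2 fold change, HCQ-evolved over control, with its standard error (horizontal axis) for the glycolytic genes tested, in pathway order (vertical axis), in OVCAR3 and CCL218. Red diamonds are enolases and aldolases and grey circles the 16 other enzymes, and ENO2 (1.81 and 2.23) and ALDOC (1.48 and 2.16) lie to the right of every grey circle of their panel. The enolases and aldolases were picked on this contrast, so their place is a description.

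Hypoxia-inducible genes outside the glycolytic steps were described in the same way. Their list, too, was chosen with earlier results of these data known, so its counts and p-values are a description. In OVCAR3 6 of 23 tested rose in edgeR and 0 fell, against 0.647% and 1.21% of all genes, with a median of 1.02 against 0.016 over all genes. At an unadjusted p under 0.05 in edgeR, 16 were higher and 1 lower, against 1023 and 960 of all 12204 genes. DESeq2 called 15 higher and 1 lower, against 542 and 563 of all genes. The count higher was 15 with all 12 libraries in one fit, 14 after the length and GC trend was removed, 12 without the filter and 7 in limma voom. Those fits called 558 of 12613, 486 of 11841, 243 of 21434 and 106 of 12204 genes higher. With plate position as a block the count was 3, in a fit that called 17 of 12204 genes higher. In CCL218 20 of 24 rose and 0 fell, against 3.82% and 2.64% of all genes, with a median of 1.47 against -0.017. Unadjusted 0 were lower and in DESeq2 0, against 1549 and 1068 of all 12241 genes. Values ran from -1.38 (0.41, adjusted p = 0.142) for the carbonic anhydrase CA12 to 1.78 (0.19, adjusted p = 0.0101) for PFKFB4, a regulator of glycolytic flux, in OVCAR3. In CCL218 they ran from -0.056 (0.38, adjusted p = 0.937) for the mitophagy receptor BNIP3 to 3.46 (0.33, adjusted p = 0.00294) for the secreted lipase inhibitor ANGPTL4. The OVCAR3 count was 0 without control pool L or R (0.025% and 0.0332% of all genes called) and 1 without control pool M or HCQ-evolved pool M (0.158% and 0.206%). It was 3 without HCQ-evolved pool L (0.404%) and 11 without HCQ-evolved pool R (4.6%). In CCL218 it was 11 to 13 without HCQ-evolved pool L, M or R or control pool R, in fits that called 0.841 to 1.21% of all genes.

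The genes whose levels ran most like each member were found by Pearson's r of log2 CPM over the 12 libraries, among 11944 genes tested in both lines. All points share library depth and the 4 group means, so r is a description. ALDOC ran most like GPI (r = 0.984), the isomerase of an early glycolytic step, then SLC29A4 (0.979) and SOWAHD (0.968). ALDOA ran most like PFKL (0.974), the liver form of phosphofructokinase, then the glucose transporter SLC2A1 (0.964) and PFKFB4 (0.960). ENO2 ran most like NCKIPSD (0.987), APOL1 (0.985) and SEMA4B (0.979), and ALDOC was place 14 on its list (0.961). ENO1 ran most like the mitotic genes PIMREG (0.977), PBK (0.977) and KIF2C (0.976), with ENO2 at place 185 (0.865). ENO3 ran most like CENPW (0.964), DVL1 (0.960) and ZDHHC12 (0.959), and its r with the other members was -0.042 to 0.340.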

How the data were processed

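The authors aligned reads to hg38 with STAR, removed duplicates with RmDup and deposited raw counts per gene symbol from featureCounts. Versions, annotation, strand setting and the treatment of reads on overlapping or duplicated genes are not given in the sources used here. All 12 columns were matched to a sample and 0 were left without one. The members and gene lists were chosen with earlier results of these data known. Tests used edgeR 4.0.16 in R 4.3.3 (quasi-likelihood, TMM scaling, robust, legacy mode). A gene was tested when 3 or more libraries reached 1 CPM, and p-values were adjusted by Benjamini-Hochberg over all genes tested, with a threshold of 0.05. Each comparison used its own 6 libraries, and the difference between lines all 12. Printed CPM values use TMM factors of all 12 libraries, and log2 CPM a prior count of 2. Exon lengths came from GENCODE 44, with 25763 of 28278 symbols (91.1%) matched. Scripts were tested on simulated data. DESeq2 1.42.0 and limma voom 3.58.1 were alternatives. Genes named are the members, related and overlapping genes, the 3 genes most like each member, and the extremes and calls of each list. Some items are not reported here.

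Plate positions paired control with HCQ-evolved pools in CCL218 (correlation of same-position deviations across 12613 genes 0.506, 0.233 and 0.195) and control pools between lines, since all were above 0.1. They did not pair OVCAR3 pools (0.401, -0.665 and -0.478) or HCQ-evolved pools between lines (0.509, -0.119 and 0.514).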

Additional observations from a re-analysis of the deposited data

Results flagged for a closer look

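Of the genes in the 3 lists described, 2 had a change that differed between the lines in the interaction test of edgeR, which called 0.872% of all genes. The log2 fold change of BHLHE40, a transcriptional repressor, was 1.66 (standard error 0.28, adjusted p = 0.0197) greater in CCL218 (2.67) than in OVCAR3 (1.02). That of P4HA2, a collagen prolyl hydroxylase subunit, was 1.01 (0.20, adjusted p = 0.0435) greater (2.34 against 1.35). HCQ-evolved pools of both genes lay above control pools in both lines. Of the 24 hypoxia-inducible genes tested, 4 were called in DESeq2, 2 in limma voom and 3 with the replicate block. Those fits called 3.67%, 1.01% and 1.13% of all genes. The count was 0 without CCL218 HCQ-evolved pool L or M (0.366% and 0.302% of all genes called) and 3 without OVCAR3 HCQ-evolved pool R (1.69%). It was 1 without any other single pool (0.405 to 0.885%). No enolase or aldolase was among them (0 of 5, with 1 at an unadjusted p under 0.05 and 0 in DESeq2 and limma voom). Unadjusted, 682 of all 12613 genes were higher and 467 lower. The lists were chosen with earlier results of these data known, so these values are a description.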

How the results depend on the processing

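Of 335 fits of the 5 genes under alternatives, 18 newly passed the threshold, 20 no longer passed and 6 turned sign. Of those no longer passing, 9 were in OVCAR3 and 4 in CCL218 (HCQ-evolved against control) and 7 were ENO3 between HCQ-evolved pools. Those that turned were ENO3 in CCL218 without control L (0.19, range -0.62 to 0.19 with 1 pool left out), the line difference of ALDOA's change without OVCAR3 control M (-0.011) or CCL218 HCQ-evolved L (-0.020, range -0.020 to 0.24), ALDOA between controls without OVCAR3 control M (0.040, range -0.22 to 0.040), and ALDOA between HCQ-evolved pools without OVCAR3 R (-0.00052) or CCL218 L (-0.12, range -0.12 to 0.12). Counts of genes called moved more, and the cause was not tested. In OVCAR3 (227) the count was 549 without a CPM filter, 1105 in DESeq2, 1165 with all 12 libraries in one fit, 81 with the replicate block, 856 after the length and GC trend was removed (486 higher and 370 lower, against 79 and 148 as reported), and 3 to 557 with 1 pool left out. The number of the 5 genes called there (2) was 4, 4, 1 and 4 in DESeq2, the joint fit, the block and the length and GC fit, and 0 to 2 with 1 pool left out. In CCL218 (791) the count was 2172 in DESeq2, 1744 with the block, 2030 after trend removal and 102 to 3047 with 1 pool left out, where 2 to 4 of the 5 genes were called. For the difference between lines (110) it was 463 in DESeq2 and 38 to 212 with 1 pool left out. Between controls (253) it was 394 without a filter, 734 in DESeq2, 431 in the joint fit, 4442 with the block and 25 to 471 with 1 pool left out. Between HCQ-evolved pools (1662) it was 3266 in DESeq2 and 152 to 8149 with 1 pool left out.

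The difference in ENO2 share in CCL218 (5.69 percentage points) was 4.76 from counts without length and 4.33 with the longest transcript as length, and 5.47 to 6.03 when 1 pool was left out. The OVCAR3 value was 3.46 (2.60 to 3.96). The ALDOC share differed by 6.58 points (4.29 to 8.99) in OVCAR3, and by 16.1 (13.8 to 19.3) for CCL218 pools. The lengths outside LOC112694756, its added counts and the paired share test were chosen after seeing the data. In CCL218, where position paired the pools, the block changed 0 calls of the 5 genes. In pairs that position did not mark, the block called 81 genes in OVCAR3 and 1460 between HCQ-evolved pools, where ENO3 had an adjusted p of 0.0636 (-1.06) in edgeR. By Spearman's rho the gene most like each member ranked 9 (GPI) to 110 (CENPW). Adding pseudogene counts was not run, since 0 pseudogenes have a row.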
